A study of Mus musculus with 4 samples.

Results

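Excitatory nuclei marked by Galnt14 and Sulf1 were examined in single-nucleus RNA sequencing of the mouse cerebral cortex. A nucleus was a member if it held at least 1 unique molecular identifier (UMI, 1 counted RNA molecule) of Slc17a7, the vesicular glutamate transporter of cortical excitatory neurons, and none of Gad1 or Gad2, the enzymes that make GABA. It also had to hold a UMI of at least 4 of 9 genes (Galnt14, Sulf1, Blnk, Dnah14, Sema3e, Ntng2, Bmpr1b, Rspo2 and Slc26a4), at most 2 UMIs of Foxp2 and none of Deptor. The members were thus chosen by the measured UMIs of these 14 genes, so the levels of the 14 are given as a description with no test. The rule found 966 of 35694 nuclei, or 8.81% of the 10968 excitatory nuclei. The 4 libraries came from the cortex of the right hemisphere of male mice at postnatal day 100, each from 1 animal. The 2 control animals were CrT+/y littermates, and the 2 CrT-KO animals were CrT-/y and carried a deletion of part of the X-linked Slc6a8 gene in all cells of the body. No animal was treated. The nuclei had been sorted by flow cytometry.

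Slc6a8 encodes the creatine transporter, which carries creatine into cells, where creatine kinases use it to buffer ATP. Cortical excitatory neurons are usually told apart by the layer in which they lie and by where their axons go: intratelencephalic (IT) neurons of layers 2 to 6 project within the cortex and striatum, extratelencephalic (ET) neurons of layer 5 to the brainstem and spinal cord, corticothalamic (CT) neurons of layer 6 to the thalamus, and near-projecting (NP) neurons stay local. Neurons of layer 6b lie next to the white matter, and a Car3-expressing type is shared by layer 6 and the claustrum. The rule genes act in several pathways. GALNT14 starts mucin-type O-glycan chains, SULF1 removes sulfate groups from heparan sulfate outside the cell, and semaphorin 3E is a secreted guidance cue. Netrin-G2 is a synaptic adhesion protein that binds NGL-2, BMPR1B is a receptor for bone morphogenetic proteins, R-spondin 2 strengthens Wnt signalling, pendrin (Slc26a4) exchanges anions, BLNK is an adaptor known from B cells and DNAH14 is a dynein heavy chain.

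The control libraries gave 233 and 257 members and the CrT-KO libraries 264 and 212. Members had a median of 10276 and 9379 UMIs in the controls and 10624 and 8400 UMIs in CrT-KO, against 7776 to 9216 UMIs per library in the other excitatory nuclei. Median detected genes were 3003 and 2827 in control members and 3028 and 2635 in CrT-KO members. The second CrT-KO library was the shallowest in both measures, and the first the deepest. The summed members of a library held 1989274 to 3022304 UMIs, and whole libraries held 51507483 to 65240843. A doublet caller marked 28 of the 966 members (2.90%) against 3.46% of all nuclei. Across libraries 96 barcodes were shared, but no 2 members had the same barcode.

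The number of the 9 genes a nucleus held had no gap at the threshold. Among the 7083 excitatory nuclei that passed the Foxp2 and Deptor limits, 1836 held none of the 9, 2201 held 1, 1365 held 2 and 715 held 3. The members held 4 in 424 nuclei, 5 in 241, 6 in 159, 7 in 95, 8 in 43 and all 9 in 4. The 715 nuclei lay just outside the threshold and the 424 just inside it. The median depth was 9358 UMIs in nuclei with 3 genes and 10095 UMIs in nuclei with 4, while nuclei with none had 7278.5 UMIs, so depth moved with the number detected and its part was not tested. A further 549 excitatory nuclei held 4 or more of the 9 genes but were excluded by Foxp2 or Deptor.

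Galnt14 (chromosome 17, 73493228 to 73710453, minus strand of GRCm38) was detected in 88.1% of members and 25.2% of other excitatory nuclei. For scale, 3.72% of 1746 non-excitatory nuclei with 3 or more UMIs of the myelin genes Mog and Mag held a Galnt14 UMI, at a median depth of 1614.5 UMIs against 9812 in members. Its level, in UMIs per 1000000 UMIs of the summed nuclei (CPM), was 460 and 520 CPM in control members and 462 and 566 CPM in CrT-KO members, with 88.8 ± 3.8 CPM (SD, n = 4 libraries) in the other excitatory nuclei. Sulf1 (chromosome 1, 12692277 to 12861192, plus strand) was detected in 51.6% of members and stood at 168 and 189 CPM in control members and 160 and 149 CPM in CrT-KO members. The 2 genes were several times above the other excitatory nuclei in each library, which the rule favoured without requiring either gene.

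The remaining rule genes differed in how often they were met. Ntng2 was detected in 76.1% of members, Sema3e in 68.7%, Bmpr1b in 58.7%, Rspo2 in 55.3%, Slc26a4 in 39.9%, Blnk in 37.2% and Dnah14 in 31.8%. In the other excitatory nuclei the 9 genes were detected in 5.19% to 28.5% of nuclei, and in the shallower myelin nuclei in 0.630% to 7.67%. The ratio of the mean level in members to that in other excitatory nuclei ran from 3.12 for Sulf1 to 7.24 for Dnah14. Foxp2, a transcription factor of layer 6 CT neurons held at 2 UMIs or fewer by the rule, stood at 7.74 and 11.6 CPM in control members and 20.5 and 20.1 CPM in CrT-KO members. Slc17a7 itself was alike in members and in other excitatory nuclei, at 186 ± 13 and 186 ± 8.8 CPM (SD, n = 4 libraries).

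The label was checked against layer markers that the rule had not used. All 7 markers of layer 6 IT neurons (Osr1, Penk, Col27a1, Col23a1, Col18a1, Adamts2 and Oprk1) were higher in members than in other excitatory nuclei in 4 of 4 libraries. Their summed level was 202 and 178 CPM in control members and 137 and 190 CPM in CrT-KO members, 2.82 times the 62.6 ± 5.8 CPM (SD, n = 4 libraries) of the other excitatory nuclei. The largest parts of the sum were Col23a1, at 77.2 ± 17.6 CPM in members, and Adamts2, at 62.0 ± 8.7 CPM. Osr1, a transcription factor, stood at 3.41 ± 0.78 CPM in members and 0.201 ± 0.134 CPM elsewhere. Oprk1, the kappa opioid receptor, stood at 20.6 ± 6.2 CPM in members and 2.57 ± 0.45 CPM elsewhere. It was not particular to layer 6 IT nuclei, at 103 ± 37 CPM in non-member nuclei with claustrum and layer 6 Car3 markers and 38.8 ± 48.8 CPM in the 25 with layer 6 IT markers.

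Markers of other layers gave a mixed picture. The layer 6 CT list without Foxp2 was 0.321 times, the layer 5/6 NP list 0.459 times and the layer 2/3 IT list 0.560 times the level in other excitatory nuclei, with members lower in 4 of 4 libraries for each list. The rule left out nuclei with more than 2 Foxp2 UMIs and the other excitatory nuclei kept them, so the low layer 6 CT level was in part set by the rule. Nuclei within the Foxp2 and Deptor limits that held 0 to 3 of the 9 genes had 900 to 1335 CPM of that list. The layer 4/5 IT list was level with the rest, at a ratio of 1.01, and the layer 5 ET list stood at 1.10. The claustrum and layer 6 Car3 list was 1.99 times and the layer 6b list 1.96 times higher. In the layer 6b list this rested on Tmem163, which stood at 158 ± 28 CPM, while Ccn2, Cplx3 and Nxph4, which define layer 6b, summed to 6, 3 and 1 UMIs over all members. Markers of glia and vessels were also summed: the 6 microglial markers summed to 41.2 ± 1.6 CPM, the 4 endothelial and pericyte markers to 1.95 ± 1.07 CPM, and the 8 oligodendrocyte markers to 177 ± 56 CPM, against 224 ± 33 CPM in other excitatory nuclei. C1qa of microglia and Cldn5 of endothelium had no UMI in members. The 6 astrocyte markers summed to 386 ± 33 CPM in members and 599 ± 25 CPM in other excitatory nuclei. The 4 markers of oligodendrocyte precursors were 1.39 times the other excitatory nuclei and higher in 4 of 4 libraries, at 16.3 and 17.01 CPM in control and 9.60 and 7.04 CPM in CrT-KO members. This list rested on Vcan. In the second cluster described below, pooled over libraries, Vcan stood at 62.9 CPM and Pdgfra, Cspg4 and Olig2 at 0 CPM. In the first cluster Vcan made up 6.44 of the 6.83 CPM of the list. The striatal projection list was 1.83 times, the inhibitory list 1.09 times and the pan-excitatory list 1.05 times the other excitatory nuclei, each higher in 4 of 4 libraries. Rgs9 made up 48.8 of the 64.9 CPM of the striatal list in the first cluster described below. Adarb2 made up 880 of the 1018 CPM of the inhibitory list in the third. The marker lists did not point to 1 cell type.

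**Figure D1:**
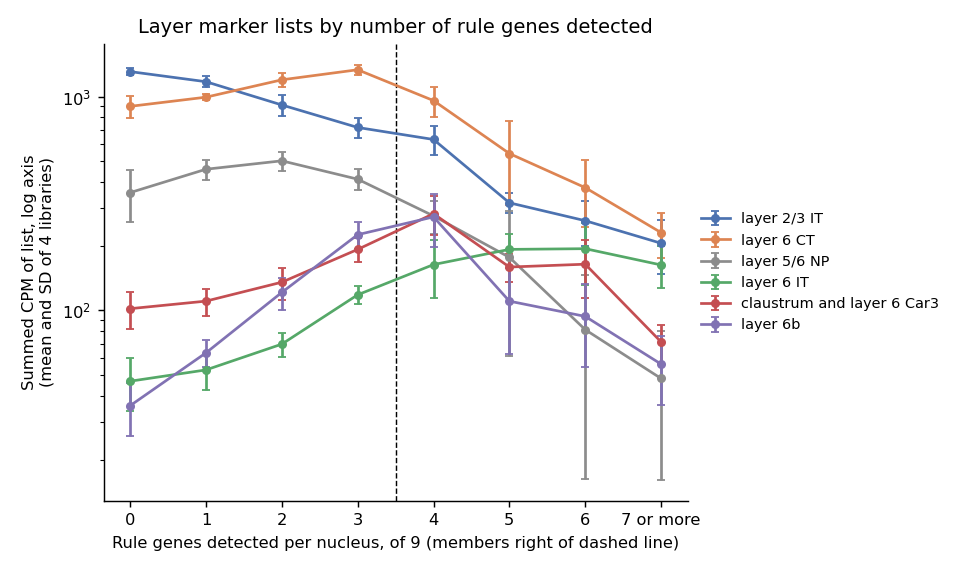
Summed level of 6 layer marker lists (vertical axis, CPM on a log axis, mean and SD of 4 libraries) against the number of the 9 rule genes detected in a nucleus. Layer 2/3 IT and layer 6 CT markers were lowest in nuclei with 7 or more genes, layer 6 IT markers levelled off from 4 genes on, and the claustrum and layer 6b lists peaked at 4 genes.

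The makeup of the nuclei changed with the number of rule genes they held. The plot of marker lists by genes detected shows layer 6 IT markers at 46.7 ± 13 CPM (SD, n = 4 libraries) in nuclei with none of the 9, 118 ± 11 CPM with 3, 164 ± 49 CPM with 4 and 163 ± 36 CPM with 7 or more. Layer 6 CT markers stood at 958 ± 152 CPM in nuclei with 4 genes and 231 ± 56 CPM in those with 7 or more. The claustrum and layer 6 Car3 list stood at 283 ± 58 CPM with 4 genes and 71.2 ± 14.5 CPM with 7 or more, and the layer 6b list at 274 ± 75 and 56.1 ± 19.8 CPM. Members just inside the threshold therefore held more layer 6 CT, claustrum and layer 6b marker RNA than members deep inside it.

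Clustering of all nuclei without the 14 rule genes placed the members in 22 of 41 clusters. The first of these held 559 members (57.9%) among its 1485 nuclei, and the next 4 held 71, 61, 56 and 46 members. By number of rule genes, 34.4% of the members with 4 genes, 65.6% of those with 5, 77.4% of those with 6, 90.5% of those with 7 and 97.7% of those with 8 lay in the first cluster, and so did all 4 members with 9. In the same cluster lay 14.7% of the nuclei with 3 genes and 0.381% of those with none. The clusters used every other variable gene, so the levels below describe them and carry no test.

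First-cluster members were set beside all other members pooled. Galnt14 stood at 667 ± 52 CPM (SD, n = 4 libraries) in them and 332 ± 39 CPM in the members outside it, Sulf1 at 243 ± 30 and 88.8 ± 5.5 CPM, and Blnk at 115 ± 6 and 35.1 ± 6.0 CPM. Taken cluster by cluster, pooled over libraries, Galnt14 was higher in the second cluster (957 CPM) than in the first (665.5 CPM), while Sulf1 (245 CPM) and Blnk (116 CPM) were highest in the first of the 5 clusters. Osr1 was met only there, at 6.63 CPM over the 4 libraries pooled, with no UMI in members of any other cluster. Hs3st4, a heparan sulfate 3-O-sulfotransferase of deep-layer neurons, stood at 128 ± 37 CPM in first-cluster members and 730 ± 64 CPM in the rest. Tmem163, a zinc transporter, stood at 37.4 ± 12.8 and 280 ± 43 CPM, and the kainate receptor gene Grik1 at 12.6 ± 7.1 and 59.3 ± 21.9 CPM.

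The next clusters each carried another set of genes. In the 71 members of the second, pooled over libraries, Ntng2 stood at 1352 CPM, Synpr, a synaptic vesicle protein, at 1041 CPM, Gfra1, a receptor for GDNF, at 710 CPM, and the fibrillar collagen gene Col11a1 at 669.5 CPM. The 6-gene claustrum and layer 6 Car3 list summed to 1655 CPM in them against 80.0 CPM in first-cluster members. Other lists were high there too: the layer 2/3 IT list summed to 1736 CPM against 219 CPM, and the layer 6 CT list to 1578 CPM against 236 CPM. In the 61 members of the third cluster the teneurin Tenm3 stood at 3908 CPM, Bmpr1b at 571 CPM, Abi3bp at 351 CPM and Igsf11 at 342.5 CPM. The fourth was led among layer lists by layer 6 CT markers (1376 CPM, with Zfpm2 at 739 CPM), and the fifth had the highest layer 5 ET sum (827 CPM).

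**Figure D2:**
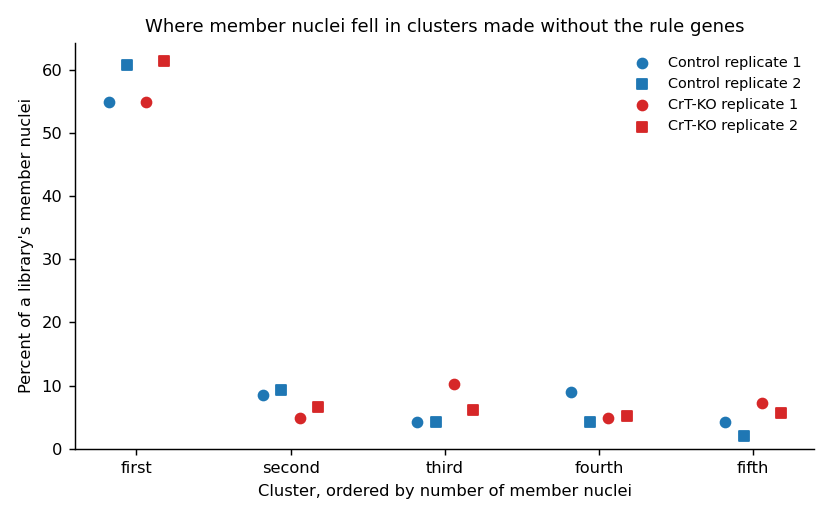
Percent of each library's member nuclei (vertical axis) in the 5 clusters that held most members, made without the rule genes. Blue points are control and red points CrT-KO libraries. The second cluster held more of the control members (8.58% and 9.34%) than of the CrT-KO members (4.92% and 6.60%), and the third the reverse (4.29% and 4.28% against 10.2% and 6.13%).

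The libraries were not alike in this mix. The second cluster held 8.58% and 9.34% of control members and 4.92% and 6.60% of CrT-KO members. The third held 4.29% and 4.28% of control members and 10.2% and 6.13% of CrT-KO members, with 27 of its 61 members from the first CrT-KO library. The first cluster held 54.9% and 60.7% against 54.9% and 61.3%, so its share overlapped between genotypes. These shares bear on the sums compared between genotypes, and the genes concerned are named with those results.

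Beyond the rule genes, 3031 genes reached 50 CPM in members or in other excitatory nuclei, and 832 of them were higher and 757 lower in members in 4 of 4 libraries. At least a 2-fold difference in mean level was seen for 34 of the higher and 26 of the lower genes. As the rule picked the nuclei, these levels are a description. The highest ratio belonged to Npsr1, the neuropeptide S receptor, at 112 and 112 CPM in control members and 103 and 96.5 CPM in CrT-KO members. Its mean was 3.87 times the 27.4 ± 9.0 CPM of other excitatory nuclei. Npsr1 was not particular to members. Non-member nuclei with layer 5 ET and with layer 5/6 NP markers held 201 ± 215 and 122 ± 39 CPM, above the member mean of 106 CPM. Non-member groups with markers of the other layers lay below that mean. Of the 20 highest, receptor genes were Gfra1 (ratio 3.49), Grin3a, an NMDA receptor subunit (2.51), Adra1a, the alpha-1A adrenergic receptor (2.42) and Rxfp1, a relaxin receptor (2.40).

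Others of the 20 were Cdh9, a cadherin (3.4998), Col11a1 (3.01), Tenm3 (2.66), the procollagen protease gene Adamts2 (2.57) and Col23a1 (2.52), together with Chst11, a chondroitin sulfotransferase (2.83), C1ql3, a secreted synaptic protein (2.73), and the vessel growth factor Angpt1 (2.47). The other 7 were Rftn1 (3.32), the zinc finger genes Zfp804b (2.88) and Zfp804a (2.42), the receptor phosphatase Ptpru (2.72), the imprinted Nnat (2.70), Tmem163 (2.44) and Slc44a5 (2.33). Several were carried by few members. Gfra1 stood at 29.6 ± 14 CPM in first-cluster members and 115 ± 21 CPM in the rest, and Col11a1 at 13.5 ± 2.8 and 105 ± 30 CPM. Many of the 20 were also higher in some group of non-member nuclei than in members. In the group with claustrum and layer 6 Car3 markers Gfra1 stood at 465 CPM, Col11a1 at 474 CPM and Tmem163 at 771 CPM. C1ql3 and Tenm3 were lower than in members in each of the marker groups. Cdh9, Chst11, Ptpru and Zfp804b were higher in first-cluster members than in all other members pooled, Chst11 at 270 ± 30 CPM against 148 ± 16 CPM. By cluster, Zfp804b (2546 CPM), Ptpru (123 CPM) and Chst11 (287 CPM) were higher still in the second cluster, and Cdh9 in the third (352 CPM) and the fourth (360 CPM) than in the first (291 CPM).

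The 10 lowest ratios included ion channel and receptor genes: Kcnh5, a voltage-gated potassium channel, at 0.233, the potassium leak channel Kcnk2 at 0.269 and Grik1 at 0.230. Trabd2b stood at 0.206, the receptor phosphatase Ptprm at 0.225, Thsd7a at 0.279, Mcc at 0.340 and the secreted neurokine-like gene Tafa2 at 0.341. The layer 6 CT genes Hs3st4 (0.304) and Zfpm2 (0.332) were the other two. For these 10 genes the highest member library lay below the lowest library of other excitatory nuclei.

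**Figure D3:**
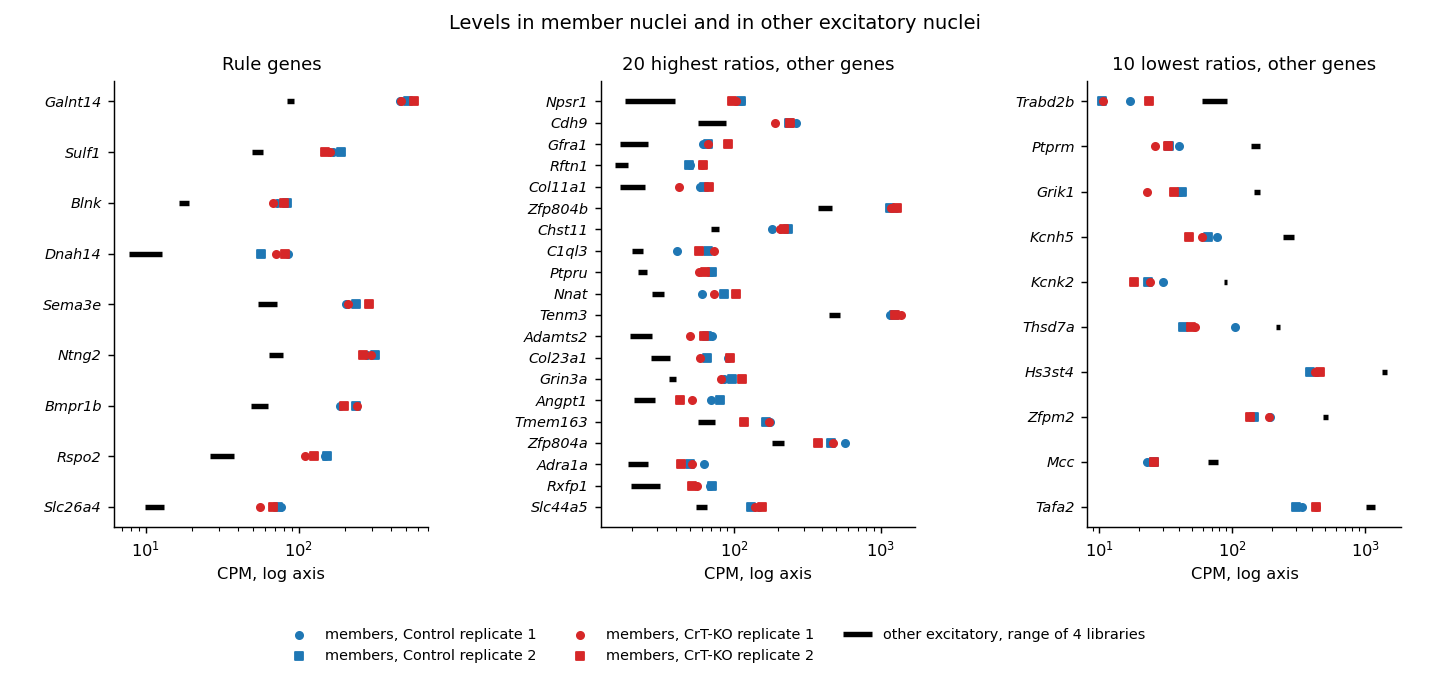
Level (CPM, log axis) of the 9 rule genes, of the 20 genes with the highest and of the 10 genes with the lowest ratio to other excitatory nuclei. Points are the 4 libraries of member nuclei (blue control, red CrT-KO) and black bars the range of the 4 libraries of other excitatory nuclei, which no point overlaps.

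Galnt14 and Sulf1 were highest in different groups of the other excitatory nuclei, though both were high in the layer 6b group. Members were left out of each group, so the rule itself lowered these levels. The 549 nuclei excluded only by Foxp2 or Deptor could stay in. The levels and correlations below are thus a description of what the rule left. Over 9 groups of non-member excitatory nuclei set by layer markers, Galnt14 was highest in the claustrum and layer 6 Car3 group (115 nuclei, 553 CPM) and in the layer 6b group (119 nuclei, 349 CPM), and lowest in the layer 2/3 IT group (2634 nuclei, 27.5 CPM). Sulf1 was highest in the layer 6b group (257 CPM) and the layer 6 CT group (2053 nuclei, 145 CPM), and stood at 52.2 CPM in the claustrum and layer 6 Car3 group. Over the 36 points of 9 groups in 4 libraries, which share libraries and differ in depth, the genes most like Galnt14 by Pearson correlation of log2(CPM + 1) were Tmem163 (r = 0.885), Rxfp1 (0.822), Caln1 (0.815), Dock9 (0.803) and Gmds (0.772). Tmem163 is itself in the list that set the layer 6b group. The genes most like Sulf1 were Thsd7b (0.861), Slc35f4 (0.844), Inpp4a (0.800), Pcdh9 (0.769) and Dlc1 (0.763), with no gene in common.

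Members made up 2.81% (95% exact binomial interval 2.47% to 3.19%) and 2.76% (2.44% to 3.12%) of the nuclei of the control libraries. In CrT-KO they made up 2.85% (2.52% to 3.21%) and 2.40% (2.09% to 2.74%), intervals that cover counting error only. The first CrT-KO library was the highest of the 4 and the second the lowest, so the genotypes overlapped. The mean share was 2.62% ± 0.32 in CrT-KO and 2.79% ± 0.034 in controls (SD, n = 2 each). Permuting the genotype over all 6 ways to split the libraries gave an exact p of 1, two-sided, and no split can give less than 0.333.

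Detection of 4 genes depends on depth, so nuclei with at least 5000 UMIs were also thinned to 5000. Members then made up 2.16% and 2.24% of the control nuclei kept and 1.99% and 2.15% of the CrT-KO nuclei kept, with 3282 to 3878 nuclei per library left out as too shallow. Both CrT-KO libraries lay below both controls, the nearest by a small margin, with a mean difference of -0.130 percentage points (exact permutation p = 0.333, the smallest possible). Thinned to 3000 UMIs, members made up 0.904% and 0.945% of control nuclei and 0.640% and 0.651% of CrT-KO nuclei. The mean difference was then -0.279 percentage points, with SDs of 0.028 in controls and 0.0077 in CrT-KO (n = 2 each), and the genotypes did not overlap (exact permutation p = 0.333). Of the excitatory nuclei, members formed 9.35% and 9.08% in control animals. The shares in CrT-KO animals were 9.00% and 7.81%, again with an exact permutation p of 0.333. No difference with 2 animals per genotype can reach a smaller p by this test.

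The genotypes were then compared gene by gene on the summed UMIs of members in each library. Of 9634 genes tested, 29 passed an adjusted p of 0.1 (0.301% of those tested), 15 higher (0.156%) and 14 lower (0.145%) in CrT-KO. The 29 are all given below, with log2 fold changes of CrT-KO over control from edgeR's quasi-likelihood test and Benjamini-Hochberg adjusted p. Log2 fold changes of all tested genes had a median of -0.0019, and 49.7% were above 0. Without TMM normalization factors 6 genes passed, 1 higher and 5 lower. In 27 of the 29 the genotypes did not overlap, where 36.1% of all tested genes did not overlap.

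Slc6a8, the deleted gene (chromosome X, 73673150 to 73682502, plus strand), gave 21 and 14 UMIs in control members and 4 and 2 UMIs in CrT-KO members. Both CrT-KO libraries lay below both controls, and the gene fell by 2.42 on the log2 scale (SE 0.57, adjusted p = 0.0912, edgeR), the direction the labels call for. It passed in 2 of the 10 alternative analyses that could test it. Other excitatory nuclei gave -1.92 (SE 0.21), and a difference between the 2 effects was not detectable (interaction -0.52, SE 0.64, unadjusted p = 0.423).

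No other creatine gene passed the test. Of the 7 genes of the creatine list, 5 were abundant enough to test, 1 was called lower (Slc6a8) and none higher. Ckb, the cytosolic brain creatine kinase, stood at 27.9 and 29.4 CPM in control members and 25.5 and 13.1 CPM in CrT-KO members (log2 fold change -0.47, SE 0.24, adjusted p = 0.745, edgeR). Gatm, which makes the creatine precursor guanidinoacetate, gave 15 and 18 UMIs against 15 and 8 UMIs, and Ckmt1, the mitochondrial kinase, 29 and 40 UMIs against 36 and 33. Gamt, which completes the synthesis, gave 4 UMIs in all.

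Among the falls, overlapping genes on chromosome 18 had the smallest p-values. Arhgap26, a GTPase-activating protein, has 2 records in the matrices, and the record ENSMUSG00000118193 (chromosome 18, 38676718 to 39110534, plus strand) stood at 174 and 143 CPM in control members and 59.9 and 60.8 CPM in CrT-KO members. That record fell by 1.35 (SE 0.13, adjusted p = 6.93e-08, edgeR). Fgf1, which encodes acidic fibroblast growth factor, lies within that record on the minus strand (38838673 to 38929472). It stood at 41.8 and 44.1 CPM in control members and 16.9 and 15.1 CPM in CrT-KO members and fell by 1.37 (SE 0.21, adjusted p = 0.000452). The second Arhgap26 record, on the same strand as the first, gave 870 and 874 UMIs in controls and 921 and 733 UMIs in CrT-KO. Whether counting used the strand was not given in the sources used here, so reads of Fgf1 and Arhgap26 could not be told apart with certainty.

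Rhbdl3, a rhomboid-like membrane protein (chromosome 11, 80300912 to 80355955), had the smallest p among the rises. It stood at 36.4 and 31.7 CPM in control members and 64.9 and 79.9 CPM in CrT-KO members, with a log2 fold change of 1.11 (SE 0.17, adjusted p = 0.000452). Its UMIs were met in 19.3% and 15.95% of control members and 31.8% and 29.2% of CrT-KO members, so the rise was spread over nuclei. Rhbdl3 stood at 158 CPM in the fifth cluster, whose share was higher in CrT-KO, and at 37.4 CPM in the first. Within first-cluster members the log2 fold changes were 1.06 (SE 0.24) for Rhbdl3, -1.70 (SE 0.17) for Arhgap26 and -1.74 (SE 0.34) for Fgf1, of which Arhgap26 passed the test there and the other two did not (adjusted p = 0.216 and 0.114).

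Megf11, a membrane protein with EGF-like repeats, stood at 95.2 and 103 CPM in control members and 51.9 and 53.8 CPM in CrT-KO members and fell by 0.87 (SE 0.14, adjusted p = 0.00116). Pcdh15, a protocadherin known from hair cells, stood at 1973 and 2026 CPM against 1420 and 1366 CPM and fell by 0.48 (SE 0.09, adjusted p = 0.00661). The transmembrane semaphorin Sema5a stood at 66.2 and 62.6 CPM against 38.1 and 33.2 CPM and fell by 0.80 (SE 0.16, adjusted p = 0.0249), and Sema5b fell by 0.60 (SE 0.15, adjusted p = 0.0955). In all 4 genes both CrT-KO libraries lay below both controls.

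The second cluster, whose share of members was lower in both CrT-KO libraries, had high levels of several of the genes that fell. There Pcdh15 stood at 5033 CPM, Kctd16 at 4709 CPM, Ptprt at 3748 CPM, Cpne4 at 1734 CPM, Sema5b at 289 CPM and Sema5a at 285 CPM, all above the first cluster. Kctd16, an auxiliary subunit of GABAB receptors, fell by 0.37 (SE 0.09), the receptor phosphatase Ptprt by 0.39 (SE 0.09) and the copine Cpne4 by 0.47 (SE 0.11), with adjusted p of 0.0955, 0.0955 and 0.0613. Among first-cluster members alone Cpne4 stood at -0.01 (SE 0.18), Pcdh15 at -0.20 (SE 0.10), Sema5a at -0.52 (SE 0.28), Kctd16 at -0.34 (SE 0.09) and Sema5b at -0.80 (SE 0.17). Cpne4 was thus near 0 there, while those of Sema5b and Kctd16 were as large as over all members or nearly so, and none of the 5 passed the test in these 559 nuclei. Without the members of the second and the third clusters, Cpne4 stood at -0.18 (SE 0.18), Sema5a at -0.61 (SE 0.22), Pcdh15 at -0.47 (SE 0.09), Kctd16 at -0.32 (SE 0.10) and Sema5b at -0.59 (SE 0.15). The fifth cluster, with a higher share in both CrT-KO libraries, was low in some falls. Megf11 stood there at 12.1 CPM, Sema5b at 5.37 CPM, Sema5a at 4.03 CPM and Syt10 at 4.03 CPM. The first cluster held 92.4, 77.4, 28.5 and 24.6 CPM of them. Fgf1 went the other way, at 61.7 CPM in the fifth and 20.7 CPM in the first.

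**Figure D4:**
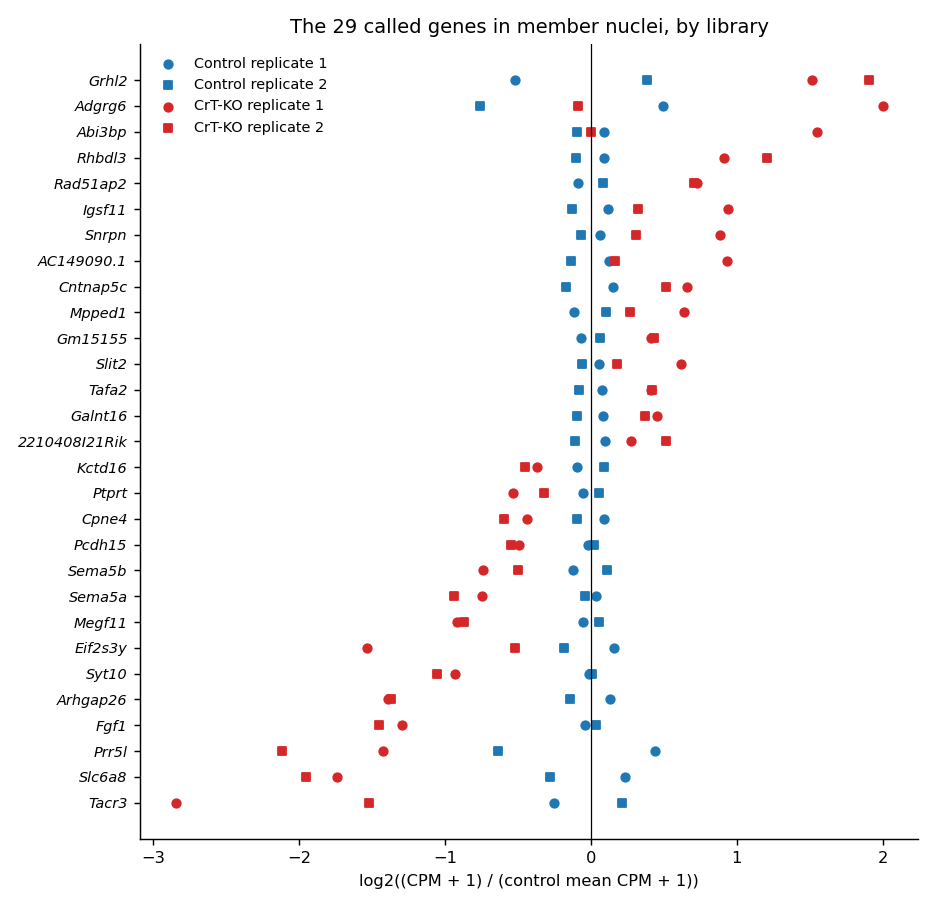
Level of each of the 29 called genes in each library's members relative to the control mean, as log2 of the ratio after adding 1 CPM (horizontal axis). Blue points are control and red points CrT-KO libraries. The genotypes overlap for Adgrg6 and Abi3bp, and for several rises (AC149090.1, Igsf11, Snrpn, Slit2) the first CrT-KO library stands well above the second.

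Of the 4 remaining falls, Tacr3 and Prr5l rested on few nuclei and Eif2s3y largely on 1 library. Tacr3, the neurokinin B receptor, gave 13 and 19 UMIs in control members and 0 and 3 UMIs in CrT-KO members, and 18 of the 19 came from 1 nucleus. Its UMIs came from 9 and 2 control nuclei and 0 and 3 CrT-KO nuclei. The ratio of control to CrT-KO was 10.3 (95% counting interval 3.23 to 52.8), and the fitted log2 fold change was -3.22 (SE 0.73, adjusted p = 0.0683). That interval takes UMIs as independent and covers the spread of neither nuclei nor animals. Prr5l, a partner of the mTORC2 kinase complex and a marker of oligodendrocytes, stood at 25.5 and 11.6 CPM against 6.29 and 3.52 CPM and fell by 1.80 (SE 0.37, adjusted p = 0.0301). Its UMIs came from 13 and 12 control nuclei and 6 and 4 CrT-KO nuclei, with up to 15 in 1 nucleus. The 7 other oligodendrocyte markers summed to 224 and 134 CPM in controls and 185 and 120 CPM in CrT-KO and overlapped, and without called doublets Prr5l kept 22 and 7 UMIs against 5 and 2, too few to test.

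Eif2s3y, a translation initiation factor on the Y chromosome, stood at 90.9 and 71.5 CPM in control members and 27.5 and 56.3 CPM in CrT-KO members (log2 fold change -0.98, SE 0.20, adjusted p = 0.0249). The first CrT-KO library was far below the other 3, in other excitatory nuclei too (31.3 CPM against 71.4 to 84.2 CPM), and without it the log2 fold change was -0.47. Other Y-linked genes, looked at after this value was seen, differed less: Uty stood at 124, 130, 126 and 138 CPM and Ddx3y at 31.0, 31.3, 30.1 and 32.7 CPM in the control and CrT-KO libraries in turn. Kdm5d stood at 43.7, 38.3, 31.4 and 41.2 CPM, lowest in the first CrT-KO library, as in other excitatory nuclei (35.4 CPM against 38.5 to 45.8 CPM). Syt10, a synaptotagmin, stood at 25.9 and 26.3 CPM against 13.2 and 12.1 CPM and fell by 0.99 (SE 0.24, adjusted p = 0.0955). In other excitatory nuclei it stood at -0.15 (SE 0.13).

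Among the rises between 0.44 and 0.78 on the log2 scale with both CrT-KO libraries above both controls, 9 are given first. AC149090.1 and Igsf11 also met these limits and are given further below. Tafa2, low in members as a whole, stood at 336 and 301 CPM in control members and 425 and 427 CPM in CrT-KO members (log2 fold change 0.46, SE 0.10, adjusted p = 0.0474). Cntnap5c, a contactin-associated protein, stood at 111 and 88.5 CPM against 158 and 143 CPM (0.64, SE 0.12, adjusted p = 0.0182), and Rad51ap2 at 27.1 and 30.5 CPM against 48.3 and 47.8 CPM (0.78, SE 0.18, adjusted p = 0.0795). Galnt16, of the same enzyme family as Galnt14, stood at 153 and 135 CPM against 197 and 186 CPM (0.46, SE 0.11, adjusted p = 0.0955).

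The other 5 of these were the guidance ligand Slit2 (0.46), the metallophosphoesterase Mpped1 (0.52), the little described Gm15155 (0.46) and 2210408I21Rik (0.44), and the imprinted splicing gene Snrpn (0.70), with adjusted p of 0.0796 to 0.0955. Snrpn shares its strand and place with Snurf and Gm38393, so its reads could be split among them. Slit2 had 135 of its 1262 UMIs in the first CrT-KO library in 1 nucleus. Snrpn stood at 89.998 CPM in the first CrT-KO library, 59.8 CPM in the second and 50.3 and 46.0 CPM in controls. With 1 library left out, log2 fold changes ran from 0.235 to 0.647 for Slit2, 0.324 to 0.673 for Mpped1 and 0.368 to 0.931 for Snrpn.

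In 4 more rises the first CrT-KO library also stood well above the second, as it did for Snrpn and Slit2. AC149090.1 stood at 194 and 162 CPM in controls and 341 and 200 CPM in CrT-KO (0.66, SE 0.14, adjusted p = 0.0474), and Igsf11, an immunoglobulin-family adhesion protein, at 62.3 and 52.2 CPM against 111 and 71.9 CPM (0.74, SE 0.16, adjusted p = 0.0457). Abi3bp, an extracellular matrix protein, stood at 25.2 and 22.04 CPM against 71.1 and 23.6 CPM (1.12, SE 0.27, adjusted p = 0.0912). Adgrg6, an adhesion receptor known from Schwann cells, stood at 17.0 and 6.57 CPM against 50.3 and 11.1 CPM (1.52, SE 0.37, adjusted p = 0.0955). Without the first CrT-KO library Adgrg6 stood at -0.04 and Abi3bp at 0.06. With 1 library left out, AC149090.1 ran from 0.222 to 0.970 and Igsf11 from 0.384 to 0.982.

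The same library had the most members in the third cluster, where Abi3bp stood at 351 CPM, Igsf11 at 342.5 CPM and Adgrg6 at 130 CPM, against 11.1, 19.5 and 6.83 CPM in the first cluster. Cntnap5c (359 against 50.9 CPM), Tafa2 (768 against 96.3 CPM), Slit2 (658 against 233 CPM) and Snrpn (145 against 44.5 CPM) were higher there too. Galnt16 was lower there (136 against 199 CPM). In the fifth cluster Cntnap5c stood at 213 CPM and Snrpn at 114 CPM. In first-cluster members alone the log2 fold changes were 0.51 (SE 0.12) for Slit2, 0.58 (SE 0.21) for Snrpn and 0.36 (SE 0.18) for Tafa2. Within first-cluster members Igsf11 stood at -0.08 (SE 0.33), Adgrg6 at 0.31 (SE 0.61), Cntnap5c at -0.06 (SE 0.22) and Abi3bp at 1.08 (SE 0.43). The first 3 were thus near 0 or within their error there, while Abi3bp kept its size on 6 and 13 control UMIs and 23 and 15 CrT-KO UMIs. With only the second and the third clusters left out, the values were 1.62 (SE 0.35) for Abi3bp, 0.68 (SE 0.16) for Cntnap5c, 1.09 (SE 0.39) for Adgrg6 and 0.50 (SE 0.15) for Igsf11. Grhl2, a transcription factor of epithelia, gave 2 and 6 UMIs in controls and 19 and 17 UMIs in CrT-KO, nearly 1 per nucleus in 19 and 16 CrT-KO nuclei (2.23, SE 0.54, adjusted p = 0.0955).

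The genotype effect in members was set beside that in the 10002 other excitatory nuclei of the same animals, where 17 of 13469 genes passed (0.126%). Of the 29 genes called in members, 28 had the same sign there and 6 passed there too. Both populations come from the same libraries, and the share of all tested genes with the same sign is not given here. The 28 of 29 thus has no background to be read against. The difference between the populations was tested as an interaction, with each library as a block. No gene of 12918 passed an adjusted p of 0.1 in edgeR (0%), and 609 had an unadjusted p under 0.05 (4.71%).

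The 2 smallest interaction p-values belonged to called genes, and neither passed. Igsf11 stood at 0.74 (SE 0.16) in members and 0.00 (SE 0.07) in the others (interaction adjusted p = 0.266, edgeR), and Kctd16 at -0.37 (SE 0.09) and -0.05 (SE 0.06) (adjusted p = 0.266). Arhgap26 stood at -1.35 (SE 0.13) and -1.25 (SE 0.11), Fgf1 at -1.37 (SE 0.21) and -1.26 (SE 0.11). Rhbdl3 stood at 1.11 (SE 0.17) and 0.49 (SE 0.08), with an interaction of 0.61 (SE 0.17, adjusted p = 0.724). The size of the Arhgap26 and Fgf1 differences was thus close in both populations. With called doublets left out, 4 genes passed the interaction test: Igsf11 (0.80, SE 0.14, adjusted p = 0.0363), Kctd16 (-0.30, SE 0.06, adjusted p = 0.0662), Tafa1 (0.45, SE 0.09, adjusted p = 0.0662) and Angpt1 (-0.83, SE 0.17, adjusted p = 0.0958).

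**Figure D5:**
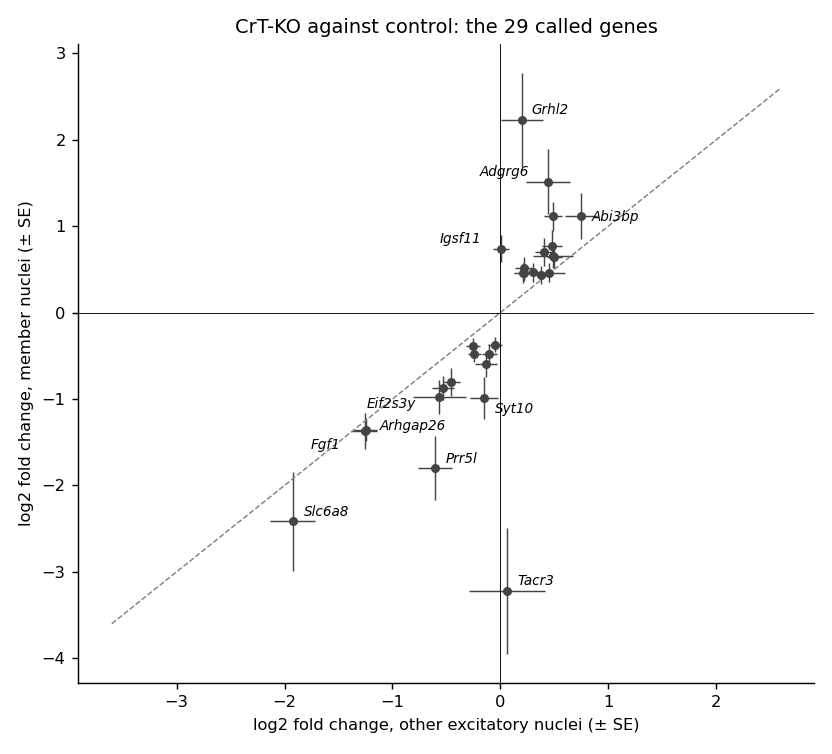
Log2 fold change of CrT-KO over control for the 29 genes called in members (vertical axis, with SE) against that in other excitatory nuclei (horizontal axis, with SE). The dashed line marks equal values. Arhgap26 and Fgf1 lie near it, and Tacr3, Prr5l, Syt10, Igsf11 and Grhl2 lie away from it.

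The pathways of the rule genes were looked at through lists of their other members, fixed with earlier results of these data known. Of 25 semaphorins, plexins and neuropilins, 19 beside Sema3e were tested, 2 fell (Sema5a and Sema5b), none rose and the median log2 fold change was 0.05, where 0.145% of all tested genes fell and 0.156% rose. Of 23 genes of mucin-type O-glycosylation, 15 beside Galnt14 were tested and 1 rose (Galnt16), with a median of 0.06. None passed among the 4 tested genes of the netrin-G and NGL list, 16 of the R-spondin and Wnt list, 14 of the BMP list, 26 of the heparan sulfate list and 2 of the SLC26 list, with medians of -0.0048 to 0.10. All genes tested had a median of -0.0019.

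Within these lists the genes with the smallest p stood as follows. Lrrc4, which encodes the netrin-G2 partner NGL-2, stood at 95.6 and 79.6 CPM in controls and 76.4 and 71.9 CPM in CrT-KO (-0.20, SE 0.14, adjusted p = 0.874, edgeR). Rspo3, a relative of Rspo2, stood at 44.1 and 49.9 CPM against 64.2 and 54.3 CPM (0.39, SE 0.16, adjusted p = 0.570), and Smad7, an inhibitor of BMP and TGF-beta signalling, at 19.7 and 20.5 CPM against 34.4 and 27.1 CPM (0.67, SE 0.21, adjusted p = 0.336). Ndst4, a heparan sulfate sulfotransferase, stood at 89.8 and 53.0 CPM against 156 and 56.3 CPM and overlapped (adjusted p = 0.423). None of these differences passed the test.

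Ion channel, receptor and energy lists held no called gene. This covered 16 glutamate receptor genes (median log2 fold change 0.11), 34 potassium channel genes (0.01), 24 sodium and calcium channel genes (0.05), 47 nuclear respiratory chain genes (-0.05), 17 glycolysis genes (-0.03) and 18 genes of energy sensing and ion pumps (0.05). Ak5, a neuronal adenylate kinase, stood at 534 and 552 CPM in control members and 630 and 700 CPM in CrT-KO members (0.33, SE 0.10, adjusted p = 0.217, edgeR). The genotypes did not overlap for Ak5, as for 36.1% of all tested genes, and it did not pass.

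Chaperone and activity lists were mostly below 0 and held no called gene. Of 12 tested chaperones of the endoplasmic reticulum, 11 were below 0 with a median of -0.33, and 4 did not overlap between genotypes, where 49.7% of all tested genes were above 0 and 36.1% did not overlap. Hspa5, the main chaperone of that compartment, stood at 13.5 and 19.7 CPM in controls and 6.62 and 9.05 CPM in CrT-KO (-1.08, SE 0.32, adjusted p = 0.234, edgeR), with -0.86 in other excitatory nuclei. Of 12 immediate-early genes, 11 were below 0 with a median of -0.25, and 7 did not overlap. Bdnf, a neurotrophin, stood at 54.6 and 72.3 CPM against 33.1 and 47.3 CPM (-0.65, SE 0.18, adjusted p = 0.181). Of 13 cytosolic heat shock chaperones, 9 were below 0 with a median of -0.10, and 5 had an unadjusted p under 0.05, against 6.96% of all tested genes. These genes share libraries and nuclei, and no gene of the 3 lists passed the test.

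Other genes, named for earlier results of these data in all excitatory neurons, lay short of the threshold in members. Abca4, a lipid transporter, gave 12 and 11 UMIs in controls and 35 and 14 UMIs in CrT-KO (1.14, SE 0.40, adjusted p = 0.434, edgeR), and Skap1, an adaptor of T cells, 40 and 42 against 100 and 35 UMIs (0.77, SE 0.26, adjusted p = 0.380). Tnnc1, a troponin C, gave 14 and 17 UMIs against 5 and 5 (-1.52, SE 0.52, adjusted p = 0.411). Potegl gave 5 and 5 UMIs against 11 and 8, too few to test. In other excitatory nuclei of the same libraries Abca4 (0.91, SE 0.14, adjusted p = 0.0242, edgeR) and Skap1 (0.98, SE 0.12, adjusted p = 0.00707) passed. Tnnc1 (-0.94, SE 0.25, adjusted p = 0.239) and Potegl (0.67, SE 0.18, adjusted p = 0.245) did not pass there.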

How the data were processed

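Nuclei were sorted from the right cortex and sequenced with a 10x Genomics 3' kit. The authors made the deposited UMI counts with Cell Ranger 3.1.0 against GRCm38 (mm10), with introns counted along with exons, and deposited matrices of called nuclei with no scaling. No filter on nuclei was added, since the lowest held 302 genes. The members, gene lists and the rule for named genes were chosen with earlier results of these data known.

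UMI counts were summed per library over members and tested with edgeR 4.0.16 (quasi-likelihood test, TMM scaling, filterByExpr with a minimum count of 10 and a minimum total of 15, adjusted p threshold 0.1 after Benjamini-Hochberg). SEs were derived from the fold change and F statistic. On simulated counts of 9641 genes, the genotype test recovered 75 of 100 genes changed 2-fold and 100 of 100 changed 4-fold, with 19 false calls. Only genes with at least 100 UMIs over the libraries were changed, and all counts were drawn at the same fixed dispersion. The simulation thus does not show what can be recovered among lower genes. CPM were scaled to all UMIs of the population, without TMM. Clusters used scanpy 1.11.5 (3000 variable genes, 30 components, 20 neighbours, Leiden resolution 1.0), and Scrublet marked doublets per library, which were kept in the sums. Shares were compared by exact permutation. Named genes were the rule genes, the creatine list, every called gene (up to 30), the 20 highest and 10 lowest ratios at 50 CPM or more, the 2 smallest p-values of uncalled lists, 5 genes fixed by name and the 5 most like Galnt14 and Sulf1. Of them, some list genes are given by count only, and 1 is not reported here. Coordinates are from GENCODE vM21, which held 99.5% of the gene identifiers. Alternatives were DESeq2 1.42.0, other normalization, filter, member rules, depth, threshold, the replicate block, and each library left out.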

Additional observations from a re-analysis of the deposited data

How the results depend on the processing

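The count of 29 called genes depended on the processing. It was 12 with DESeq2, of which 5 were among the 29. It was 6 without normalization factors (1 higher and 5 lower), 74 without the filter on low counts and 11 without doublets. It was 9 with at least 5 of the 9 rule genes, 1 (Arhgap26) among first-cluster members and 12 at an adjusted p of 0.05. An alternative chosen after seeing the data left out the members of the second and the third clusters but kept those of the fifth. That alternative gave 3 (Arhgap26, Fgf1 and Rhbdl3), while the log2 fold changes of many others moved little (Pcdh15 -0.47, Megf11 -0.79, Syt10 -1.22, Gm15155 0.47). The count was 40 with at least 3 of the 9 genes, 23 after thinning to 5000 UMIs and 33 with the replicate number as a block. Of these, 18, 12 and 21 were among the 29. The replicate numbers name libraries only (correlation of the deviations of same-numbered libraries 0.126, 2 pairs), and the block changed no direction. Leaving out 1 library gave 34 to 74 calls, with 48 without the first control and 74 without the second CrT-KO library, of which 21 and 22 were among the 29. Called in at least 10 of 13 alternatives were Arhgap26, Fgf1, Rhbdl3, Megf11, Pcdh15 and Sema5a. Slc6a8 was called in 2 of the 10 that could test it, with the same sign in all 10. Signs turned for Igsf11 (-0.0797) and Cntnap5c (-0.0567) among first-cluster members, for Adgrg6 (-0.0362 without the first CrT-KO library, 2.35 without the first control), and for the uncalled Ckmt1 (-0.29 after thinning, -0.12 without the first control and -0.14 without the second CrT-KO library, with 0.37 the highest with a library left out). The other 26 called genes kept their sign wherever they could be tested in the 13 alternatives other than the one added. Without doublets 4 genes passed the interaction test, and none did against nuclei with at least 1 rule gene. The difference in member share (-0.167 percentage points) ran from -0.393 to 0.0588 with a library left out, the last without the second CrT-KO library, and after thinning from -0.213 to -0.0466. The cause of these changes was not tested. With 2 animals per genotype and 212 to 264 members per library, low genes could pass with large differences. Slc6a8, Tacr3 and Grhl2, with few UMIs, were called at log2 fold changes of -2.42, -3.22 and 2.23. Smaller differences of genes that low may have been missed.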
